A study of Mus musculus with 3 samples.

Results

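The 9 genes described here encode 6 STAT transcription factors (Stat2, Stat3, Stat4, Stat5a, Stat5b and Stat6) and 3 Janus kinases (Jak1, Jak2 and Tyk2). They were picked by gene symbol as members of these families and make up 9 of the 55536 genes in the gene tables, of which 22028 are annotated as protein-coding. The study sequenced ribosomal RNA-depleted RNA from the chromatin fraction of C57BL/6J mouse macrophages grown from bone marrow. Chromatin-fraction RNA is the RNA that stays with DNA when nuclei are extracted, so it is enriched for transcripts that are still being made or spliced. All 3 libraries belong to 1 group, cells given lipid A at 100 ng/ml for 50 min, and were made from 1000, 250 and 500 ng of RNA in replicates 1, 2 and 3. Lipid A is the part of bacterial lipopolysaccharide that toll-like receptor 4 recognises. No untreated library was analysed here, so every value below is a level or a spread within the lipid A group and none is a response to lipid A. The labels give the 3 libraries the same donor code and separate biological replicate numbers, so the spread between them may be partly technical.

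Janus kinases sit on the cytoplasmic tails of cytokine and interferon receptors. When a ligand joins the receptor chains, the kinases phosphorylate each other, the receptor and a STAT protein, and the STAT proteins pair, enter the nucleus and bind DNA. STAT2 acts with IRF9 on interferon-stimulated response elements, while STAT3, STAT4, STAT5A, STAT5B and STAT6 as pairs bind gamma-activated site-like elements. In macrophages the pathway carries the signals of type I and type II interferon, interleukin-10, interleukin-6, interleukin-4 and the colony-stimulating factor receptors of the beta common chain family.

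The sequences that separate the coding forms of Stat3 are shown first, because the transcript tables give each form its own level. The longer difference is the stretch that STAT3 beta lacks: the beta transcript joins its exon further in, skips 50 bases of the alpha transcript and so ends in another reading frame with a shorter protein. The other is 3 bases at a splice junction, the length of a single codon. They begin inside codon 700, so the marked letters are not themselves a codon in the reading frame. The sequences are from the GENCODE M21 transcripts, read 5′ to 3′ on the minus strand of GRCm38 (mm10), and capitals mark the bases that the other form lacks. The first pair spans chr11:100889511-100889915 with the capitals at chr11:100889541-100889590, and the second spans chr11:100889899-100893106 with the capitals at chr11:100893074-100893076.
Stat3-203 at the beta junction: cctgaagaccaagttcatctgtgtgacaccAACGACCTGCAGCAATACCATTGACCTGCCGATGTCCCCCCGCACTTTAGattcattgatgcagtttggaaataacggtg
Stat3-202 at the beta junction: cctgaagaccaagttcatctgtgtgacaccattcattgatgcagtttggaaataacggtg
Stat3-203 at the codon junction: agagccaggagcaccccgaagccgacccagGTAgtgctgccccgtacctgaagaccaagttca
Stat3-201 at the codon junction: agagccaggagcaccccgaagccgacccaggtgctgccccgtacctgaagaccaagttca

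The starts of 3 members are shown because the transcript tables assign them reads from separate starts or because a response-element core lies there. The windows are the bases just before an annotated RefSeq start (GRCm38.p6), without the bases that belong to an annotated exon. The search covered both strands of the RefSeq windows of 250 bases before to 50 after each start, and windows may hold more than 1 motif. The gamma-activated site core TTCNNNGAA was in 8.3% of the 32851 mouse promoters of that length, the interferon response core GAAANNGAA in 8.56%, and the kB motif in 4.51%. Capitals mark a match to the interferon response core, which in Stat2 lies on the opposite strand. The Stat2 match begins 221 bases before the start, and the Stat4 match begins 97 bases before the inner of the gene's RefSeq starts. No member's window held the gamma-activated site core, and the kB motif was found only in Stat5a, 234 bases before its inner start. A match or its absence describes letters in the window and says nothing of binding.
Stat2, chr10:128270248-128270497, plus strand: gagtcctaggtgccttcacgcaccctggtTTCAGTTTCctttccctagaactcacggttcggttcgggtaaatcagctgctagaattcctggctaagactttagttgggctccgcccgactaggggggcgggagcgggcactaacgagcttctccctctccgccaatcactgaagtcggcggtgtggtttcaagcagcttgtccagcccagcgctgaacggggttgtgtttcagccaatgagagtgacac
Stat4 inner start, chr1:52007990-52008239, plus strand: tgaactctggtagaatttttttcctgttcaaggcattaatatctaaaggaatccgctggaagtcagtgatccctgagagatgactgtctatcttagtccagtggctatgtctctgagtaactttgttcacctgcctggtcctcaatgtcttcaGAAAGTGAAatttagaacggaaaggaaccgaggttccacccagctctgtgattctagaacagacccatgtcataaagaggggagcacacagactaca
Stat5b outer start, chr11:100850725-100850831, minus strand: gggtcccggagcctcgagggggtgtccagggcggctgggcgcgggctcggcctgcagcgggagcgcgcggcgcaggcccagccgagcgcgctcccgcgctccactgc
Stat5b inner start, chr11:100822571-100822820, minus strand: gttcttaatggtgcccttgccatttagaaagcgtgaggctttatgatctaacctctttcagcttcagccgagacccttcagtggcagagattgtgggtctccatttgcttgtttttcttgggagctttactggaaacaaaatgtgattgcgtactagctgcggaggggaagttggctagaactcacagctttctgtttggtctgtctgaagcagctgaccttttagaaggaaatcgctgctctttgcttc

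Gene counts summed to 10496703, 17687379 and 14806118 in replicates 1, 2 and 3. Macrophage markers were present in all 3 libraries: 7 of 7 passed 10 expected counts in each, with a summed level of 321 to 400.4 TPM. Of the markers of other blood cells, 1 of 6 T cell genes (Cd4, at 1.52 ± 0.51 TPM, SD, n = 3), 0 of 6 natural killer cell genes, 0 of 6 B cell genes, 0 of 6 neutrophil genes and 3 of 5 dendritic cell genes passed. The summed level was 1.02 to 2.03 TPM for the T cell list, in which Cd3d, Cd3e, Cd3g and Trac were listed at 0 in all 3 libraries, and at most 0.28 TPM for natural killer cells, 0.22 for B cells, 1.02 for neutrophils and 4.25 for dendritic cells. Of 4 fibroblast genes 0 passed, and their summed level was 0.03, 0.88 and 0.84 TPM. The same reads were quantified in both of 2 ways by the authors. The first, made from alignments, is used unless the second, made without an alignment file, is named. In the second, 4 of 6 T cell and 2 of 6 natural killer cell genes passed, with summed levels of 20.2 to 24.7 and 5.17 to 7.02 TPM. There 2 of 6 B cell and 1 of 6 neutrophil genes passed, at 4.7 to 9.6 and 1.3 to 1.7 TPM. So did 5 of 5 dendritic cell and 3 of 4 fibroblast genes, at 7.7 to 10.7 and 2.5 to 3.6 TPM. Protein-coding genes held 22.4%, 16.4% and 20.4% of all TPM in replicates 1, 2 and 3, and TPM levels move with that share. In a bulk library fewer cells making a transcript and less RNA of it per cell cannot be told apart.

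The members fell into 2 ranges of level. Stat6, Jak1, Stat2, Jak2, Stat3, Stat5a and Tyk2 had mean levels between 29.2 and 72.9 TPM, which placed them between the 85.5th and the 94.4th percentile of the 9665 protein-coding genes detected in each library. Stat5b and Stat4 had 2.4 and 1.37 TPM and stood at the 32.4th and 20.4th percentile. All 9 members were detected, which means at least 10 expected counts in each library. The median over the members was 33.9 TPM, against 4.87 TPM over the detected protein-coding genes. Going down the order by mean TPM, only 1 of the 8 pairs of neighbours was apart, with ranges over the 3 libraries that did not overlap: Tyk2 was 12.2-fold above Stat5b. The ranges of the other neighbours overlapped. Among these, Stat2 was above Jak2 by 1.58-fold and Stat5a above Tyk2 by 1.14-fold, each in all 3 libraries.

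**Figure D1:**
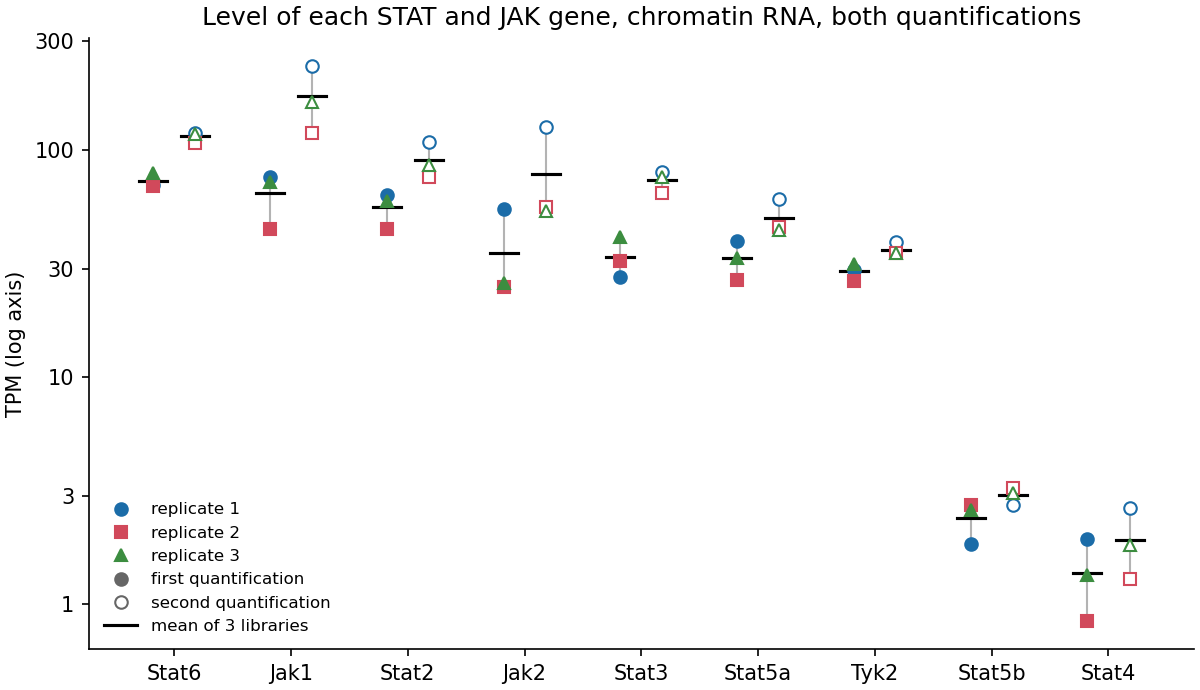
Level of each of the 9 genes in TPM on a log axis, for each library in the first (filled) and the second (open) quantification, with the mean as a bar and the range as a line. The 7 higher genes lie between 25 and 79.3 TPM in the first quantification, while every library of Stat5b and Stat4 lies at or under 2.74 TPM.

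Among the kinases, Jak1 (ENSMUSG00000028530.14, chr4:101152367-101265282, minus strand) serves most of the interferon, interleukin-6 family and common gamma chain receptors. Its level was 76.2, 44.9 and 72.2 TPM in replicates 1, 2 and 3, a mean of 64.4 ± 17 (SD, n = 3), from 3151, 3820 and 3482 expected counts. Replicate 2 was low on the TPM scale. After TMM scaling, which sets libraries to a common total by edgeR's trimmed mean of M-values, the same gene had 262, 232 and 251 CPM (counts scaled to a common library total), so its libraries spanned 1.13-fold. TPM, unlike CPM, also carries the share of all TPM that goes to other RNA and the lengths of the transcripts given reads. The processed pseudogene Gm12785 overlaps Jak1 over 172 bases on the same strand and had 4.99, 3.48 and 28.4 TPM. The small nuclear RNA gene Gm24468 overlaps it over 104 bases on the other strand and was listed at 0 TPM. Their means in the second quantification were 59 and 90.6 TPM. Both are named after their values were seen, and their reads may be mixed with those of Jak1.

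Jak2 (ENSMUSG00000024789.13, chr19:29251828-29313080, plus strand) serves the receptors for granulocyte-macrophage colony-stimulating factor, interferon gamma and erythropoietin. Its level was 55, 25 and 26 TPM in replicates 1, 2 and 3, a mean of 35.3 ± 17 (SD, n = 3). Replicate 1 was the high library and the other two lay close together. On the CPM scale the values were 240.2, 163.5 and 137.4, a span of 1.75-fold. Replicate 1 was also the high library in the second quantification, at 126 TPM against 56.1 and 53.9. Without replicate 1 the span was 0.25 on the log2 scale, against 0.81 with it.

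Tyk2 (ENSMUSG00000032175.11, chr9:21104068-21131243, minus strand) serves the type I interferon receptor and the interleukin-12 and interleukin-10 families. It had 29.6, 26.5 and 31.4 TPM, a mean of 29.2 ± 2.49 (SD, n = 3), the lowest mean of the kinases. Its CPM values were 85.5, 137 and 130, with replicate 1 low. The ratio of Jak1 to Tyk2 in TPM was 2.57, 1.69 and 2.3 in the 3 libraries, above 1 in each. The ratio of Jak2 to Tyk2 was 1.86, 0.943 and 0.827, so their order differed between libraries. An antisense gene, 1700084C06Rik, overlaps Tyk2 over 24326 bases and had 0.32 ± 0.17 TPM; it is named for that overlap, after its values were seen. Whether the counting used strand is not given in the sources used here, so reads of the pair may be mixed.

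Stat2 (ENSMUSG00000040033.16, chr10:128270559-128292849, plus strand) encodes the STAT that joins IRF9 in the complex formed after type I interferon, and its start is the window with the interferon response core printed above. Its level was 63.3, 45 and 59.5 TPM, a mean of 55.9 ± 9.66 (SD, n = 3), from 1558, 2435 and 2056 expected counts. On the CPM scale it was one of the steadiest members, at 129.5, 148.2 and 148 in replicates 1, 2 and 3, a span of 1.14-fold. Stat2 lies between Apof, 0.405 kb away and listed at 0.07 ± 0.01 TPM, and Il23a, 3.29 kb away on the other strand at 7.52 ± 3.3 TPM.

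Stat6 (ENSMUSG00000002147.18, chr10:127642986-127660957, plus strand) carries the interleukin-4 and interleukin-13 signal. It had the highest mean level of the 9 in the first quantification, not apart from Jak1, which was above it in each library in the second. Stat6 had 69.8, 69.6 and 79.3 TPM, a mean of 72.9 ± 5.55 (SD, n = 3), and the smallest relative spread on that scale, 7.61%. Its CPM values were 180, 273 and 239, with replicate 1 low. In the same libraries Stat6 stood 1.1, 1.55 and 1.33 times above Stat2 in TPM and 36.2, 82.9 and 59.2 times above Stat4. Its neighbours in the genome are Lrp1, at 142 ± 55.8 TPM, and Nab2, whose end overlaps it by 40 bases on the other strand and which had 5.82 ± 0.56 TPM.

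Stat4 (ENSMUSG00000062939.11, chr1:51987148-52107189, plus strand) carries the interleukin-12 signal, best known in T cells and natural killer cells. It had 1.93, 0.84 and 1.34 TPM, a mean of 1.37 ± 0.55 (SD, n = 3), from 38, 53 and 45.8 expected counts. The 95% Poisson interval of the count was 26.9 to 52.2 in replicate 1, 39.7 to 69.3 in replicate 2 and 33.7 to 61.4 in replicate 3, and covers counting error only. These intervals overlap, and the CPM values of 3.2, 3.26 and 3.35 differed by 1.05-fold. That span was the narrowest of the members under TMM but not under library totals, where it was 0.28 on the log2 scale against 0.11 for Stat2, or in the second quantification, where it was 0.24 against 0.13 for Jak1. On the TPM scale Stat4 had the widest span of the members, 2.3-fold. The processed pseudogene Gm3940 overlaps Stat4 over 432 bases on the other strand and had 1.97, 0.2 and 0.88 TPM. Gm28177 overlaps it over 29929 bases on the same strand and had 0.033 ± 0.058 TPM. Both are named after their values were seen, and their reads may be mixed with those of Stat4. The T cell receptor genes Cd3d, Cd3e, Cd3g and Trac were listed at 0 in each library in the first quantification, and the natural killer cell list summed to 0.28, 0.02 and 0.14 TPM in replicates 1, 2 and 3. In the second quantification Cd3d had 18 ± 2.33 TPM (SD, n = 3), and the T cell list summed to 23.2, 20.2 and 24.7 TPM beside 1.92 ± 0.69 for Stat4. The part of such cells in the Stat4 level was not tested. Il12rb1 and Il12rb2, the chains of the interleukin-12 receptor, had 0.137 ± 0.081 and 1.71 ± 0.47 TPM. In the second quantification they had 2.98 ± 1.42 and 2.48 ± 0.73 TPM. Both are named here after their values were seen.

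Stat3, Stat5a and Stat5b form a cluster of 159 kb on chromosome 11. Stat5b (ENSMUSG00000020919.11, chr11:100780731-100850724, minus strand) and Stat5a (ENSMUSG00000004043.14, chr11:100859351-100885169, plus strand) point away from each other across 8.63 kb. Stat5a and Stat3 (ENSMUSG00000004040.16, chr11:100885098-100939540, minus strand) point towards each other and overlap by 72 bases at their ends. STAT3 carries interleukin-10 and interleukin-6 signals, and the STAT5 pair carries those of the colony-stimulating factor receptors.

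**Figure D2:**
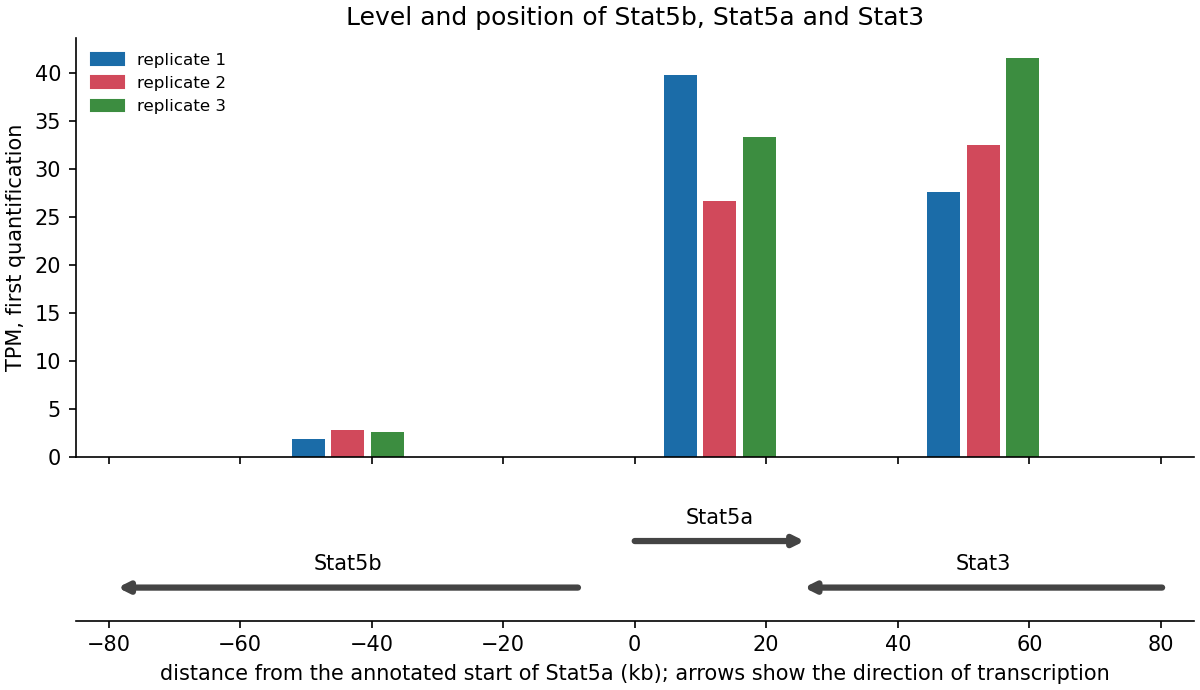
Top, TPM in the first quantification of Stat5b, Stat5a and Stat3 in each library, drawn at each gene's middle. Bottom, the 3 genes by distance from the annotated start of Stat5a, with arrows for the direction of transcription; Stat5b stays at or under 2.74 TPM in each library and the others at or above 26.65.

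Stat5a had 39.8, 26.7 and 33.3 TPM, a mean of 33.3 ± 6.58 (SD, n = 3). Stat5b had 1.84, 2.74 and 2.61 TPM, a mean of 2.4 ± 0.49 (SD, n = 3), from 122, 316 and 220 expected counts. The ratio of Stat5a to Stat5b was 21.6, 9.73 and 12.8 in the 3 libraries, and the second quantification gave 22.3, 14.1 and 14.3. In both quantifications no library of Stat5b came near a library of Stat5a. The pair went opposite ways in replicate 1: on the CPM scale Stat5a was highest there, at 108.6 against 95.6 and 76, and Stat5b lowest, at 10.2 against 19.3 and 15.9.

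The 2 STAT5 genes are close copies, so reads can be shared between them. Their coding sequences were identical at 89.2% of aligned positions. Of the 31-base words in the Stat5b transcripts, 15.1% also occur in Stat5a, and 11.5% of the Stat5a words occur in Stat5b. The authors' posterior SD of the count, which reflects reads that could belong to either gene, was the same for both members, at 1.19, 2.8 and 1.89 counts in replicates 1, 2 and 3. Those values are small beside the counts of either gene. Stat3 shared no more than 0.152% of such words with Stat2 in either direction.

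Stat3 had 27.6, 32.5 and 41.6 TPM, a mean of 33.9 ± 7.09 (SD, n = 3), from 894, 1875 and 1509 expected counts. Its CPM values were 74.3, 114 and 109, with replicate 1 low. The ratio of Stat3 to Stat5a was 0.693, 1.22 and 1.25, so the order of these converging neighbours differed between libraries. In the second quantification Stat3 was above Stat5a in each of the 3 libraries, by 1.48 ± 0.21 times (SD, n = 3), and their ranges did not overlap. On its other side Stat3 lies 17.2 kb from Cavin1, listed at 0.32, 0.06 and 0.05 TPM.

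Between the libraries, 5 of the 9 members spanned more than 1.5-fold in CPM, namely Stat5b, Jak2, Tyk2, Stat3 and Stat6. Of the 13262 genes with a mean of at least 10 counts, 52.7% did so, and the members' median span of 0.6 on the log2 CPM scale lay beside 0.61 over those genes. The members' count is thus near the background. Replicate 1 was the lowest library for 6 of the 9 and the highest for 3, which became 4 and 5 when libraries were scaled by their totals. Without replicate 1 none of the 9 passed 1.5-fold, against 16.7% of all genes, and the largest span left was 0.33, that of Stat5a. Without replicate 2, 3 of the 9 passed, against 33.7% of all genes. Scaling by library totals in place of TMM put the median gene at 0.21 above its mean in replicate 1, against 0.02 with TMM. It left Stat5a, Stat5b and Jak2 as the members past 1.5-fold, 3 of the 9 against 57.1% of all genes. Stat5a passed only under that scaling. On the CPM scale replicate 1 also had lower macrophage markers: 7 of 7 lay below their mean log2 CPM there, with a median of -0.37. With library totals 5 of 7 did so, with a median of -0.17. On the TPM scale the direction was mixed. The macrophage list summed to 321, 387 and 400 TPM in replicates 1, 2 and 3, but its median was 44, 43.2 and 39.3 TPM. In the second quantification that list summed to 534, 508 and 477.5 TPM, highest in replicate 1. The fibroblast genes were lower in replicate 1 as well, at 0, 28 and 21 counts for Col1a1, 1, 25 and 14 for Col1a2 and 0, 19 and 12 for Col3a1 in replicates 1, 2 and 3, with Pdgfra at 0 in each. Their summed level in the second quantification was 2.5, 2.6 and 3.6 TPM. The part of either in the members' spread was not tested. The RNA input and the library cannot be told apart, since each amount was used once.

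**Figure D3:**
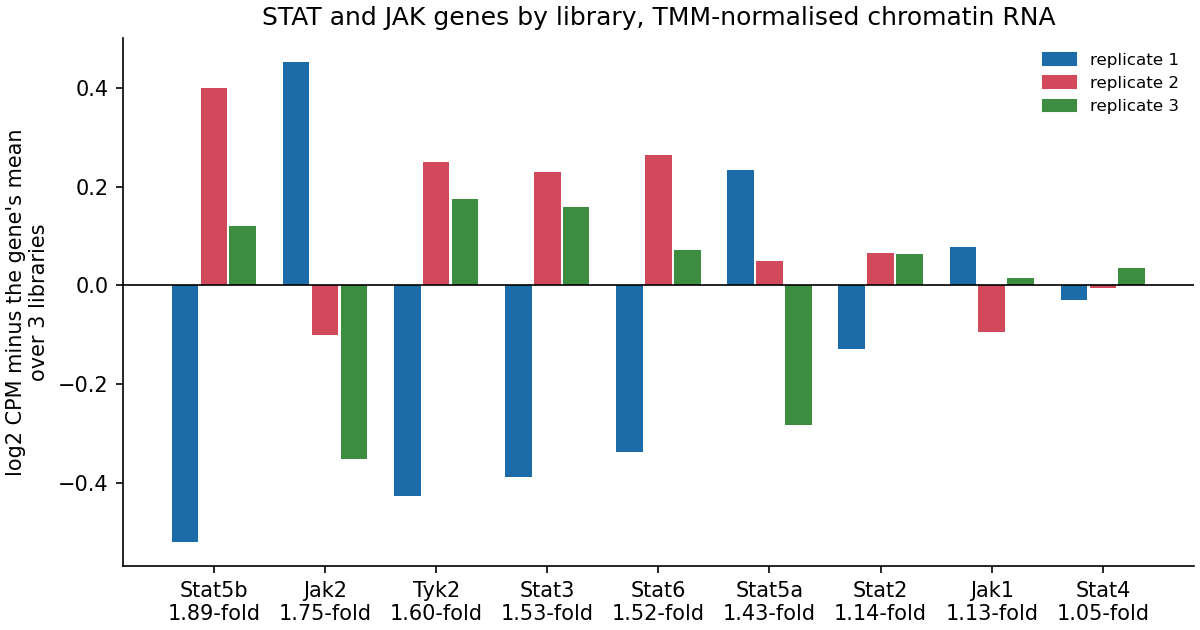
Log2 CPM after TMM scaling of each gene in each library minus the gene's mean over the 3 libraries, ordered by the fold between the highest and the lowest library, which is printed under each name. Replicate 1 is below 0 for Stat5b, Tyk2, Stat3, Stat6, Stat2 and Stat4 and above 0 for Jak2, Stat5a and Jak1; Stat2 and Stat4 are above 0 there when libraries are scaled by their totals.

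The biological coefficient of variation from an edgeR fit across 13262 genes was 0.27 for all genes together. For single members it ran from 0.21 in Jak1 to 0.27 in Stat5b, with a median of 0.24. The fit draws these single-gene values towards a trend over all genes, which was 0.24 at Jak1 and 0.26 at Stat5b. They are therefore not each member's own spread alone. Of the 73 detected genes in the lists of the pathway, those whose profile over the 3 libraries lay nearest to a member were named by distance, the Euclidean distance between log2 CPM values centred on each gene's mean. Stat4 lay nearest to the receptor chain genes Ifngr1 and Ifnar2, at 0.053 and 0.072. Its profile rests on 38, 53 and 45.8 counts, and its log2 span was 0.065 under TMM but 0.28 with library totals. The nearest genes of Stat4 are therefore loosely set. Stat2 lay nearest to Il7r and Il4ra, also receptor chain genes, at 0.056 and 0.058. Tyk2 and Stat3 both had Pias2 and Ep300 as their nearest genes, at 0.055 and 0.094 for Tyk2 and 0.083 and 0.084 for Stat3, and were each other's nearest member at 0.047. Pias2 encodes a SUMO ligase of the family that inhibits STAT proteins, and Ep300 an acetyltransferase. Stat6 lay nearest to Ep300 and Csf2rb at 0.061 and 0.15, Stat5b to Csf2rb and Ep300 at 0.12 and 0.18. Jak1 lay nearest to Socs3 and Bcl6 at 0.074 and 0.084, and Stat5a to Ptpn2 and Il6st at 0.084 and 0.13. Jak2 stood furthest from its nearest genes, Il15ra and Stam2, at 0.2 and 0.2. The points are 3 libraries, which share depth and input, so the distances are a description with no test.

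The other genes that flank the members were mostly at low levels. Jak1 lies 154 kb from Ak4, listed at 0.023 ± 0.015 TPM. Raver2, whose end overlaps that of Jak1 by 4 bases on the other strand, had 1.83 ± 1.19 TPM. Jak2 lies between Rcl1 at 0.773 ± 0.26 TPM and Insl6 at 0.22 ± 0.25 TPM, both far below its own 25 TPM or more in each library. Tyk2 lies between Raver1 at 9.27 ± 2.37 TPM and Cdc37, which encodes a chaperone partner of kinases, at 10.7 ± 3.24 TPM. Ghdc, 9.77 kb beyond the end of Stat5b, had 1.5 ± 0.51 TPM. Of the neighbours outside the set that are named here, only Lrp1 had a mean above that of the member beside it.

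The second quantification gave higher levels for all 9 members. It was over 1.5-fold higher for 6 of the 9 (Jak1, Jak2, Stat3, Stat2, Stat6 and Stat5a) and over 1.5-fold lower for 0, against 54.8% and 1.37% of the 13262 genes. The members' share is again not far from the background. Jak1 moved most, to 235, 119 and 163 TPM in replicates 1, 2 and 3, which is 2.67 times its first level. Jak2 had a mean of 78.5 ± 40.8 TPM and Stat3 one of 73.7 ± 7.91 (SD, n = 3) there. Stat5b and Tyk2 differed least, at 3.02 ± 0.27 and 36.4 ± 2.42 TPM. In that quantification 4 of the 8 neighbours in the order were apart: Stat3 above Stat5a, Stat5a above Tyk2, Tyk2 above Stat5b and Stat5b above Stat4.

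The transcript tables give levels for the annotated Jak1 forms. In the first quantification Jak1-201, the full-length coding transcript with 25 exons, held 55.1 ± 5.74% of the gene's TPM, or 42.2, 27.2 and 35.5 TPM. In the second it had a similar level, 54.4, 35.8 and 42.2 TPM. The short transcript Jak1-206, of 421 bases, had 0.39, 0.9 and 2.2 TPM in the first quantification and 81.4, 37.1 and 45.9 TPM in the second, where it led. Jak1-202, a processed transcript of 374 bases named after its values were seen, had 0, 0.02 and 0 TPM in the first and 40.6, 17.1 and 29.3 TPM in the second. Stat3 also had a short form that was higher in the second. Stat3-214, a processed transcript of 651 bases, was listed at 0, 0.26 and 0 TPM in the first quantification and at 18.5, 15.1 and 17.9 TPM in the second. The levels of these 3 short transcripts thus differed widely between the quantifications.

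The same leading transcript headed the gene in each library for 4 of the 9 members in the first quantification (Stat2, Stat3, Stat6 and Jak1) and for 6 in the second. Of the protein-coding genes with a mean of at least 10 counts, more than 1 transcript and a TPM above 0 in each library, 54.4% did so in the first quantification and 60.7% in the second. By mean, a protein-coding transcript led in all 9 members in the first and in 8 in the second, against 65% and 51.5% of those genes. Stat6-201, with 22 exons, held 64.3 ± 3.14% of Stat6, and Stat2-201, with 24 exons, 39 ± 3.06% of Stat2. Tyk2-203 held 45.1 ± 12% of Tyk2, but Tyk2-204, a retained-intron transcript of 2 exons, led in replicate 1. All 4 annotated Jak2 transcripts are coding. Jak2-202 held 51 ± 8.87% and Jak2-204, which starts 613 bases further in and encodes the same 1132 codons, 40.5 ± 12.4%. Jak2-204 led in replicate 2.

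Stat5a had a pair of leading transcripts with near-equal shares. Stat5a-206, a coding transcript of 4 exons that ends 21949 bases before the gene does, held 28.3 ± 11.8%, and Stat5a-207, a processed transcript of 6 exons, 27.8 ± 7.01%. Stat5a-207 led in replicate 1 and Stat5a-206 in the other libraries. By expected counts, which are not divided by length, Stat5a-207 held 46.6 ± 5.23% and led in each library. Of its 3958 bases, 62.6% lie outside the exons of the consensus coding transcripts.

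Stat5b has a pair of annotated coding transcripts with the same 786 codons and separate starts, both printed above. Stat5b-202 starts 28196 bases inside the gene and held 61.8 ± 34.2% of its TPM, while Stat5b-201, from the outer start, held 35.3 ± 30.8%. In single libraries Stat5b-201 was listed at 0, 1.56 and 1.27 TPM and Stat5b-202 at 1.84, 0.93 and 1.34 TPM. The authors' interval for Stat5b-201 reached 0.377 TPM in replicate 1 and began at 0.807 in replicate 2 and 0.651 in replicate 3. These intervals cover the assignment and counting of reads, and their level is not given in the sources used here. The second quantification gave Stat5b-202 76.5 ± 10.1% and led with it in each library.

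Stat4 has a similar pair of starts. Stat4-201, from the inner start with the interferon response core, had 0.17, 0.72 and 0.63 TPM, and Stat4-202, from the outer start, 0.68, 0 and 0.23 TPM. Both encode 748 codons. The authors' intervals for Stat4-201 were 0.0112 to 0.615 TPM in replicate 1, 0.321 to 0.811 in replicate 2 and 0.267 to 0.909 in replicate 3. All 3 intervals overlap.

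The coding forms of Stat3 printed above could be followed in each library. Stat3-203 encodes STAT3 alpha with 770 codons, Stat3-201 the alpha form without the single codon, and Stat3-202 STAT3 beta with 722 codons, which lacks the end of the alpha protein that holds its transactivation domain. The alpha forms together had 8.38, 12.2 and 14.9 TPM and beta 3.7, 2.68 and 2.87 TPM in replicates 1, 2 and 3. Beta therefore held 30.6%, 18% and 16.1% of the sum, a mean of 21.6 ± 7.87% (SD, n = 3), with replicate 1 high. The second quantification gave 30.1%, 13% and 14.3%. Alpha was above beta in each library in both quantifications. Within alpha, the form without the codon held 36%, 38.4% and 35.7%, a mean of 36.7 ± 1.49% (SD, n = 3), and 30.4%, 39.9% and 34.3% in the second quantification. The authors' interval for Stat3-201 in replicate 1 ran from 0.0163 to 3.64 TPM around a value of 3.02, so its share there is loosely set. Stat3-201, Stat3-203 and Stat3-202 are 2927, 4516 and 6042 bases long and end 3138, 1712 and 0 bases before the end of the gene. The split between the forms therefore rests on reads at these differing ends as well as at the junctions.

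Transcripts without an annotated open reading frame held much of several members' TPM. Of the 8 members with such a transcript, 2 had more than 50% of their TPM outside coding transcripts, Stat2 with 60.8 ± 3.37% and Stat3 with 54.9 ± 2.95% (SD, n = 3). Of the 8543 protein-coding genes with a mean of at least 10 counts and such a transcript, 46.4% did so, with a median share of 47.3% against 39.3% over the 8 members. The Stat2 share was 64.2%, 57.5% and 60.8% in the 3 libraries and lay wholly in 6 retained-intron transcripts, the largest of them Stat2-206. These transcripts are short. By expected counts they held 18.2% of Stat2, and Stat2-201 held 81.4 ± 1.16%. Stat6, Tyk2 and Jak1 had 34.9 ± 2.38%, 34.6 ± 7.34% and 43.1 ± 5.3% outside coding transcripts, retained introns in Stat6 and Tyk2 and processed transcripts in Jak1. Stat5a had 44.2 ± 10.2% in processed transcripts and Stat4 35.6 ± 20.2% in retained introns. By expected counts the Stat5a share was 51.3 ± 5.66%, while retained introns held 18.1 ± 3.6% of Stat3. In the second quantification 3 members passed 50%, Stat2, Stat3 and Stat4. The median there was 43.4% over the 8 members and 56.9% over the 8543 genes. Stat5b had 2.93 ± 5.08%, and Jak2 has no such transcript.

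**Figure D4:**
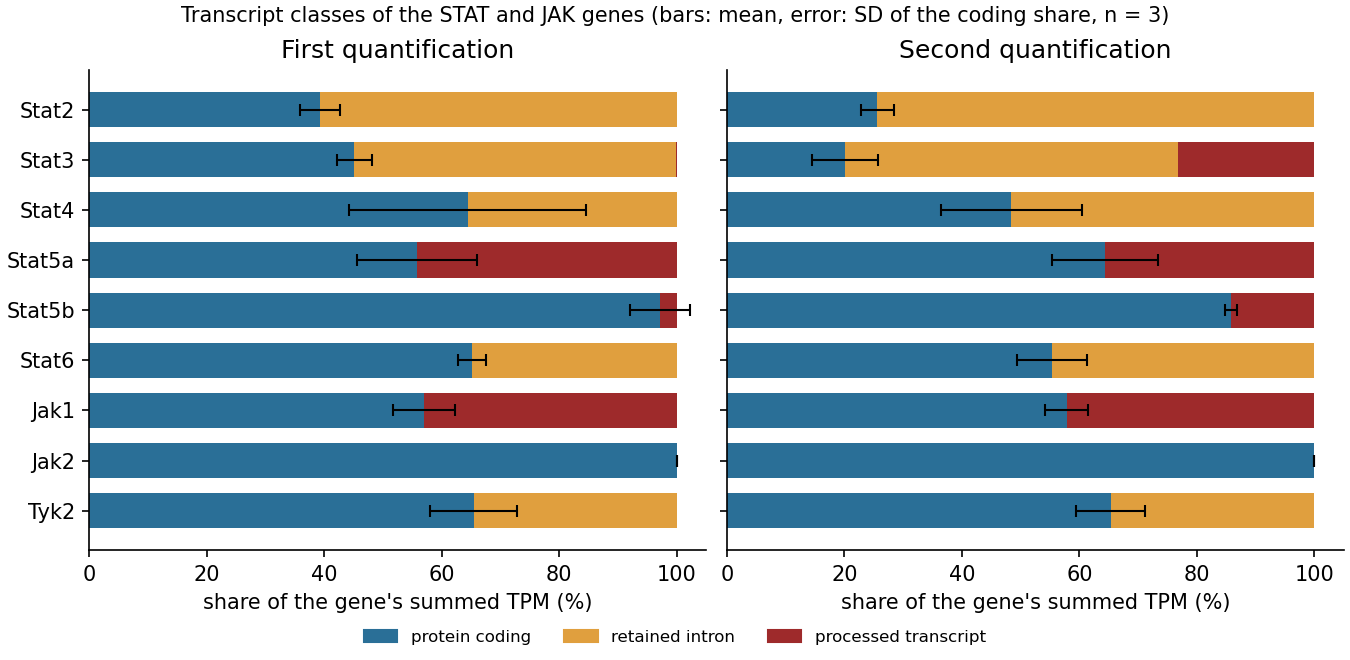
Mean share of each gene's summed TPM in coding, retained-intron and processed transcripts over 3 libraries, for both quantifications, with the SD of the coding share as an error bar. Stat2 and Stat3 are the members under 50% coding in the first quantification, and Jak2 is wholly coding because no other class is annotated.

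The rest of the pathway was described from lists of ligands, receptors, partners, inhibitors and targets. Of the 15 ligands, 10 were detected, with a median of 4.4 TPM. Il10, whose receptor uses JAK1, TYK2 and STAT3, and Il12b, the subunit shared by interleukin-12 and interleukin-23, were highest, at 49.4 ± 17 and 23.8 ± 24.6 TPM. Il12b had 51.2, 3.43 and 16.9 TPM in replicates 1, 2 and 3, so replicate 2 was low. Ifng was lowest and listed at 0 in each library. Of the 10 ligands with a mean of at least 10 counts, 8 spanned more than 1.5-fold between libraries, against 52.7% of all genes tested.

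Of the 32 receptor chains, 21 were detected, with a median of 5.73 TPM over the list. Csf2ra, the ligand-binding chain for granulocyte-macrophage colony-stimulating factor, and Il10rb were highest, at 102 ± 42.9 and 89.6 ± 13.4 TPM. Ifnlr1, Il5ra and Prlr tied for lowest at 0 TPM in each library, and 7 of the 21 spanned more than 1.5-fold, against the same 52.7%. In the second quantification 31 of the 32 were detected, with means of 2.23, 1.08 and 2.72 TPM for Ifnlr1, Il5ra and Prlr.

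All 8 partners were detected, with a median of 9.63 TPM. Stam2, an adaptor that binds Janus kinases, and Crebbp, a histone acetyltransferase recruited by STAT proteins, were highest at 23.2 ± 6.77 and 23 ± 3.36 TPM. Nmi, a STAT-binding protein, was lowest at 0.933 ± 0.5 TPM. Irf9, the partner of STAT2, had 20.3, 15.4 and 16.8 TPM beside 63.3, 45 and 59.5 for Stat2. It is named for that role and after its values were seen. Of the 8 partners, 1 spanned more than 1.5-fold, beside 52.7% of all genes.

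All 19 inhibitors were detected, with a median of 5.77 TPM. Ptprc, which encodes the CD45 phosphatase, had 510, 197 and 326 TPM, and Socs3, the feedback inhibitor of STAT3 signalling, 106, 64.2 and 93.7 TPM. Both were highest in replicate 1 and lowest in replicate 2. Socs2 was lowest at 0.573 ± 0.076 TPM. Of the 19, 4 spanned more than 1.5-fold in CPM, where 52.7% of all genes did.

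Of the targets, the 10 genes of the STAT2 complex had a median of 23.3 TPM and 7 of the 10 spanned more than 1.5-fold between libraries, beside 52.7% of all genes. Rsad2, which encodes the antiviral enzyme viperin, had 341, 51.4 and 313 TPM, and Oasl1 51.9, 15.3 and 103 TPM. Oas1a was lowest at 13.7 ± 3.19 TPM. The list's median log2 CPM stood 0.61 below its mean in replicate 2 and 0.48 above it in replicate 3, while Stat2 itself stood at 0.07 and 0.06. Ifnb1, a ligand named after its values were seen, had 15.7, 4.95 and 28.1 TPM and was low in the same library. The part of the low RNA input of replicate 2 in these values was not tested.

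The 5 STAT3 targets and the 5 STAT5 targets were all detected, with medians of 64 and 7.46 TPM. Pim1, a kinase gene on both lists, had the highest level on each, at 215 ± 44.4 TPM. Socs3 came next for STAT3 and Bcl6, at 15.6 ± 4.04 TPM, for STAT5, while Bcl3 at 31.1 ± 4.54 TPM and Socs2 were the lowest of the lists. Of the 6 STAT6 targets only Mrc1, the mannose receptor, was detected, at 190, 165 and 181 TPM beside 69.8, 69.6 and 79.3 for Stat6. Ccl22 had 0.647 ± 0.57 TPM, and Retnla and Ccl17 were listed at 0 in each library. In the second quantification 2 of the 6 were detected.

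**Figure D5:**
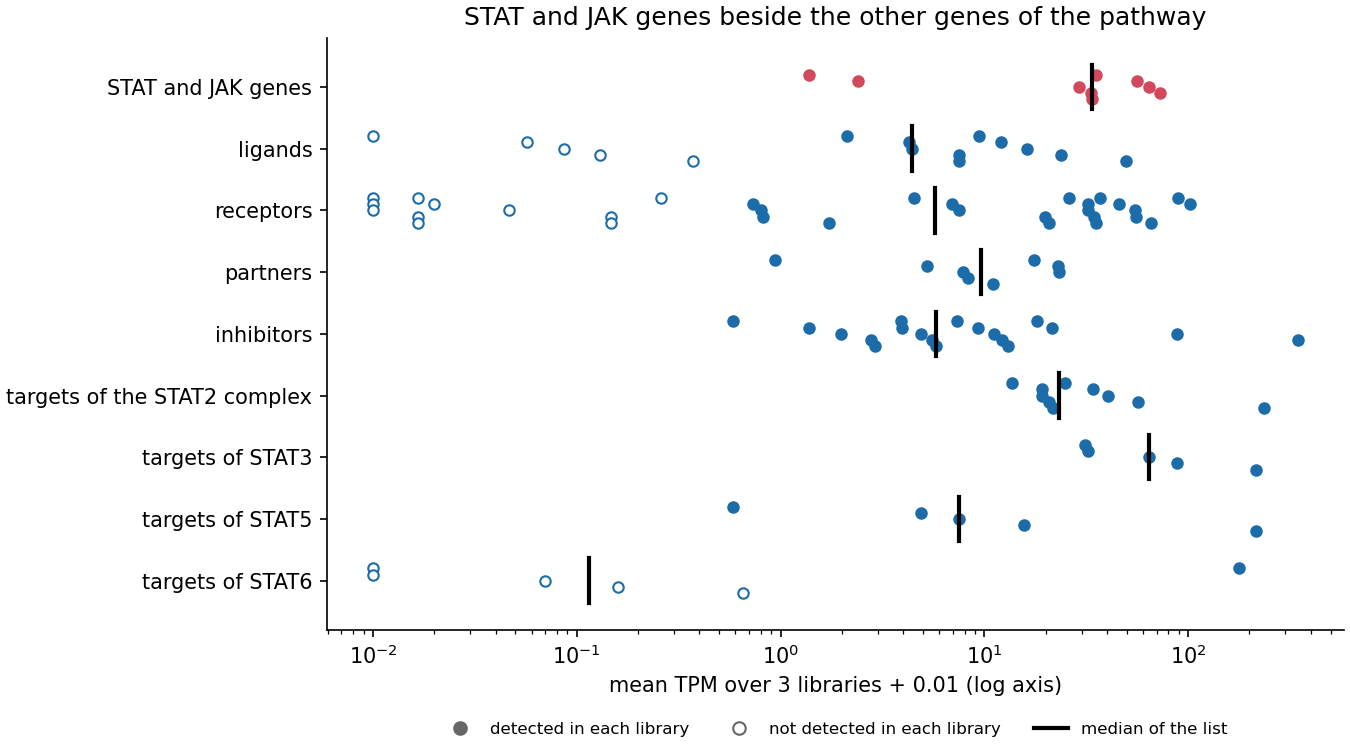
Mean TPM over 3 libraries, plus 0.01, on a log axis for the 9 members and each list of the pathway; filled points were detected in each library and black lines are medians. Medians run from 0.105 TPM for STAT6 targets to 64 TPM for STAT3 targets, with 33.9 TPM for the members.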

How the data were processed

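Total RNA-seq of chromatin-fraction RNA was deposited for 3 libraries of 1 group. Per the deposited notes, reads were processed on mm10 with GENCODE M21. The aligner, quantification tools, versions and strand setting are not given in the sources used here. Per the file headers, the gene tables hold expected counts, TPM, FPKM and a posterior SD of the count. The deposited transcript tables of the first quantification add bounds of an interval whose level is not given. Those of the second hold estimated counts and TPM, which were summed by gene here. Rows naming no gene, 0.383% to 1.28% of the expected counts in the deposited gene tables, were left out.

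Expected counts were rounded and scaled by TMM in edgeR 4.0.16 (R 4.3.3) over genes with a mean of at least 10 counts, and log2 CPM was taken after adding 0.5 to each count. Quantifications were compared as log2 of TPM plus 0.1. DESeq2 1.42.0 size factors were an alternative. The scaling was tested on simulated data. Poisson intervals, and a floor of 3 counts (0.17 to 0.286 CPM), cover counting error only. The libraries are not copies: 50.7% to 77% of genes summing to 200 or more reads over 2 libraries lay beyond the 95% range of counting noise. That range was set by library totals and not by TMM. The pairs with replicate 1 had the higher shares, 77% and 74.7%, and the part of scaling in them was not tested. With 1 group no test was made, as an exact sign-flip over 3 libraries cannot go below p = 0.25.

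The members and the gene lists were chosen with earlier results of these data known. The text names all members; the 2 highest and the lowest gene of each list by mean TPM; the 2 list genes nearest to each member in profile; the nearest protein-coding gene on each side (not for Stat4); and the leading transcripts, the leading 2 for Stat3, Stat5a and Stat5b. Stat2-206, Stat3-202 and Stat4-202 were named after their values were seen. Some items are not reported here. Alternatives are in the closing section.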

Additional observations from a re-analysis of the deposited data

How the results depend on the processing

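No paired analysis was possible because the libraries form 1 group. The members' median level of 33.9 TPM was 73.7 in the second quantification and 43.1 in FPKM, and 30 to 36.6 TPM when each library was left out. The count of 5 members over 1.5-fold between libraries was 3 with library totals and 0 to 4 with 1 library left out, lowest without replicate 1. Over all 13262 genes the share of 52.7% became 57.1% with library totals and 16.7% to 41% with 1 library left out. With 1 library left out the members' median span of 0.6 (log2) became 0.11 to 0.54. The count of 4 members with the same leading transcript in each library was 7 by expected counts and 4 to 7 with 1 library left out. The 1 pair of neighbours apart in the order became 4 in the second quantification and 1 to 4 with 1 library left out. With fewer libraries there are fewer values to overlap; the cause of the other changes was not tested. The other settings for these results, namely DESeq2 size factors, TMM without the ribosomal DNA-like locus, no filter on low counts, a prior count of 2, a pseudocount of 1 TPM, at least 50 counts for detection (8 of 9 members, all but Stat4) and TPM rescaled to protein-coding genes, moved none of them by more than 1 SD or 1.5 times. Leaving out libraries for detection, quantification, coding share and order, and the alternatives for Stat3 beta and the lists, were chosen after seeing the data. Of the values for single members and lists, 162 stayed within 1 SD and 54 moved beyond it. The SD was that over the 3 libraries or, for spans, that of the spans with 1 library left out. Leaving out 1 of 3 libraries cannot move a mean by 1 SD. For levels, transcript shares and the Stat3 beta share those settings were therefore bound to stay and tell nothing of stability. The depth of 38 to 53 counts limits the Stat4 values.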
